A study of Homo sapiens with 6 samples.

Results

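The cerebellin genes CBLN1, CBLN2, CBLN3 and CBLN4 were examined in a prostate cancer cell line and its taxane-resistant derivative. With them were GRID1, NRXN2 and NRXN3, receptors of the synaptic complex that cerebellins build, and NLGN1, a neuroligin that binds neurexins directly. CBLN2 was chosen by its measured counts, which were high in the parental line and near 0 in the resistant line, so that difference is described here without a test. The other 7 genes were added as paralogs or receptors. The 8 members were found by gene symbol among 58735 genes of the deposited tables. C4-2B is an established human castration-resistant prostate cancer line of the LNCaP lineage, and RC4-2B was derived from it by 72 h cycles of the taxane cabazitaxel (CBZ), raised from 0.1 to 20 nM over about 4 months. RNA was sequenced from 3 biological replicates of each line, all grown in RPMI-1640 with 10% fetal bovine serum according to the sample labels. Each group is 1 cell line, so the replicates carry the spread between cultures of that line and not between independent selections.

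Cerebellins are secreted proteins of the C1q family that sit in the synaptic cleft. They bind neurexins on the presynaptic membrane and delta-type glutamate receptors on the postsynaptic membrane, and so tie both sides of a synapse together, best known at the parallel fibre synapses of the cerebellum. Neuroligins are postsynaptic partners that bind neurexins directly, and LAR-type phosphatases form a parallel set of presynaptic receptors with ligands of their own. Prostate epithelium forms no synapses, and the levels below are those of RNA from whole cultures, in which fewer cells expressing a gene and less RNA per cell cannot be told apart.

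The libraries held between 15707134 and 18052517 counts on genes, at which 3 counts correspond to 0.170 to 0.188 CPM (counts scaled to a common library size, by the TMM method of edgeR). ABCB1, which encodes a drug efflux pump that exports taxanes, had 0, 1 and 0 counts in C4-2B, against 10742, 15948 and 13179 in RC4-2B. RC4-2B replicate 2 stood apart from its group. The SD of its log2 difference per gene was 0.632 against replicate 1 and 0.556 against replicate 3, compared with 0.168 to 0.247 for the other pairs within a line, and its difference from replicate 1 ran with GC content across genes (Spearman's rho -0.68, a description across genes). For that reason values corrected for GC content stand beside the tests of the members and of some other genes. Luminal markers were present in both lines, with a summed level of 521 to 550 FPKM (counts divided by gene length and library total, a level per length) in C4-2B, against 329 to 404 FPKM in RC4-2B over the 6 of 7 listed markers that were matched, while the basal markers KRT5 and TP63 were at 0 counts in every library.

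CBLN2 (ENSG00000141668, GRCh38 chromosome 18, 72536680 to 72638521, minus strand) encodes a cerebellin that binds neurexins and is widely made in the brain. The C4-2B libraries held 65, 101 and 194 counts for it. The RC4-2B libraries held 0, 0 and 1. The groups did not overlap. In CPM these were 3.88, 5.72 and 11.04 in C4-2B, a mean of 6.88 ± 3.72 (SD, n = 3). With the C4-2B mean set against 3 counts per RC4-2B library, CBLN2 was at least 38.6-fold lower in RC4-2B than in C4-2B. The bound takes that mean as exact and leaves out the spread between C4-2B libraries. That bound lay between 26.9 and 47.0 when any 1 library was left out, and was lowest without C4-2B replicate 3.

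**Figure D1:**
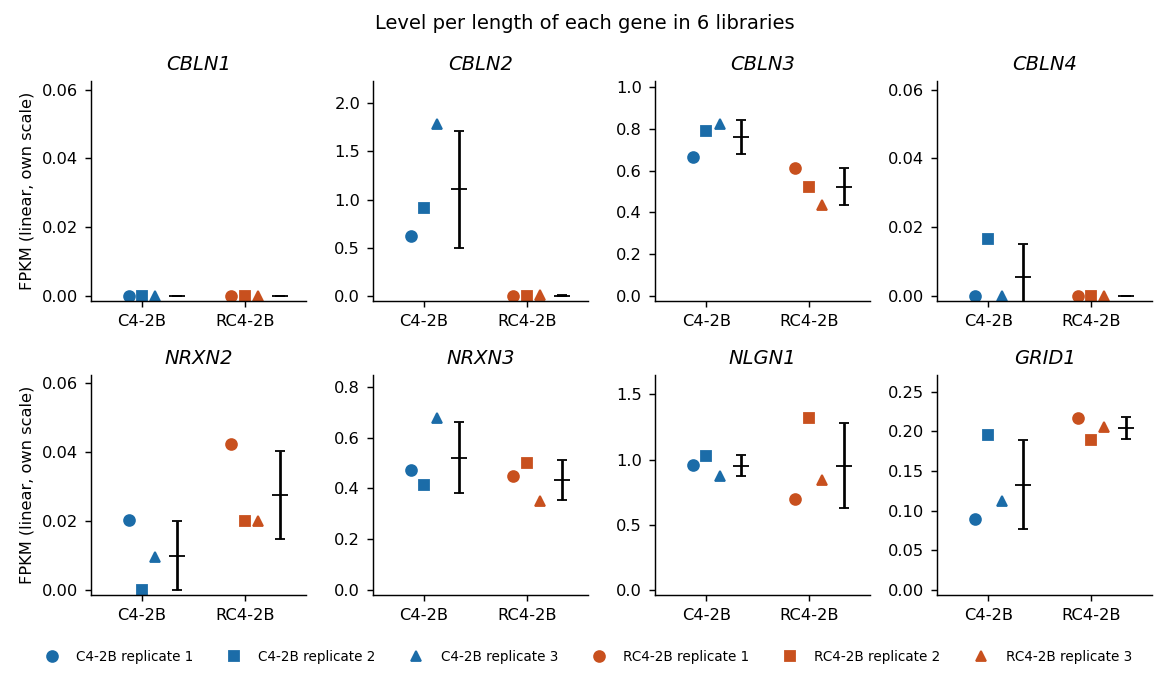
FPKM of each of the 8 members on a linear scale of its own, with 1 marker per library and, beside each line's markers, the mean and SD (bars end at the axis where the mean minus the SD is below 0). CBLN2 lies between 0.620 and 1.78 in C4-2B and at or near 0 in RC4-2B, while NLGN1, CBLN3 and NRXN3 lie between 0.349 and 1.32 in every library of both lines.

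CBLN2 also varied within the parental line. The highest C4-2B library was 2.85-fold above the lowest in CPM, and the coefficient of variation was 54.1%, compared with a median of 8.27% over the 15054 tested genes. In C4-2B, 98.4% of tested genes varied less between replicates than CBLN2 did. Its level thus differed between cultures of C4-2B as well as between the lines.

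The start regions of CBLN2 and of its paralog CBLN3 are shown because CBLN2 was the cerebellin near 0 in RC4-2B and CBLN3 the only other cerebellin detected above 3 counts. Each line gives the 250 bases before the gene's RefSeq start (assembly GRCh38.p14), 5′ to 3′ on the gene's own strand, with every CG step in capitals. The CBLN2 window is chr18:72544343-72544592 and the CBLN3 window is chr14:24429669-24429918, both on the minus strand.
CBLN2: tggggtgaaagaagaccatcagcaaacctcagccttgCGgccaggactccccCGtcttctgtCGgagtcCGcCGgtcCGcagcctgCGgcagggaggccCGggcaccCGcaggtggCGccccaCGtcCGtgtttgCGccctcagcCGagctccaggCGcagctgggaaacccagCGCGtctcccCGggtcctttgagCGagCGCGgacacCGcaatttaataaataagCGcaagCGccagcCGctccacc
CBLN3: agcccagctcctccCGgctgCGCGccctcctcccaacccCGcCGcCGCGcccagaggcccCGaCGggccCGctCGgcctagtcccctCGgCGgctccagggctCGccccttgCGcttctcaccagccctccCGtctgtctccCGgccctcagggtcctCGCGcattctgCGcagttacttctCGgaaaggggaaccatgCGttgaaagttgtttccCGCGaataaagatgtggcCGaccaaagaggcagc
Both windows held 25 CG steps, more than 78.4% of 35116 RefSeq promoter windows of the same length, and their GC content was 67.2% for CBLN2 and 68.4% for CBLN3. Searched on both strands, the letters TATAAA, the core of a TATA box, were in neither window and in 10.7% of all windows. GGGCGG, the core of a GC box, was likewise in neither and in 42.6% of all windows. The same held for AGAACA, a half-site of the androgen receptor, which 12.4% of all windows contained. For both genes the RefSeq start lies inside the span given in the deposited tables, the CBLN3 window also lies within the span of KHNYN, and gene-level counts do not show which start was in use. Windows were matched for 4 of the 8 members. Of the others matched, the 2 windows of NLGN1 held 19 and 17 CG steps and the 3 windows of NRXN3 held 3, 24 and 5.

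The remaining cerebellins were low in both lines. CBLN3 (chromosome 14, 24426532 to 24430954, minus strand), which in the cerebellum is secreted together with CBLN1, had 32, 40 and 41 counts in C4-2B, against 28, 25 and 21 in RC4-2B. In CPM it was 1.91, 2.26 and 2.33 in C4-2B, against 1.75, 1.43 and 1.23 in RC4-2B, so the groups did not overlap, as was the case for 34.1% of all tested genes. The difference did not pass the test across all genes (log2 fold change -0.56 ± 0.26 (SE), 95% interval -1.17 to 0.041, edgeR adjusted p = 0.25), and was -0.37 after correction for GC content. As a ratio, the interval runs from 0.446 to 1.03 of the C4-2B level. CBLN3 shares 315 exon bases, 11.7% of its exons, with KHNYN on the opposite strand, and KHNYN was near 30 CPM in both lines (31.2 ± 2.44 and 30.3 ± 5.33, n = 3 each). Whether the counts used strand is not given in the sources used here, so reads of CBLN3 and KHNYN in the shared bases cannot be told apart.

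CBLN1, the cerebellin of cerebellar granule cells, had 0 counts in all 6 libraries. CBLN4, which binds neurexins and the netrin receptor DCC, had 1 count in C4-2B replicate 2 and 0 elsewhere. With 3 counts as the limit that a count of 0 allows, both were not detectable at this depth. Taken per length, CBLN2 made up 48.2%, 53.1% and 68.4% of the summed cerebellin FPKM in the C4-2B libraries and 0%, 0% and 2.13% in RC4-2B. The summed cerebellin level was 1.29, 1.72 and 2.60 FPKM in C4-2B, against 0.611, 0.520 and 0.445 in RC4-2B, and in the latter nearly all of it was CBLN3.

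Of the presynaptic receptors among the members, NRXN3 had the more counts. NRXN3, a neurexin (chromosome 14, 78170373 to 79868290, plus strand) had 138, 127 and 205 counts in C4-2B, against 125, 146 and 102 in RC4-2B. The groups overlapped, and the fitted difference was small against its error (log2 fold change -0.29 ± 0.23 (SE), 95% interval -0.82 to 0.23, edgeR adjusted p = 0.45). Corrected for GC content the value was -0.41. NRXN2 (chromosome 11, 64606174 to 64723188, minus strand) had 4, 0 and 2 counts in C4-2B, against 8, 4 and 4 in RC4-2B, too few to be tested, and 289 of its exon bases are shared with the antisense gene NRXN2-AS1. Gene-level counts do not resolve the alpha and beta forms of a neurexin or the splice insert on which cerebellin binding depends.

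Of the postsynaptic receptors, GRID1 encodes the delta glutamate receptor to which cerebellins couple neurexins. GRID1 (chromosome 10, 85599555 to 86366493, minus strand) had 10, 23 and 13 counts in C4-2B, against 23, 21 and 23 in RC4-2B. The highest C4-2B library reached the RC4-2B range, and the difference did not pass the test (log2 fold change 0.59 ± 0.36 (SE), 95% interval -0.24 to 1.42, edgeR adjusted p = 0.35). Corrected for GC content the value was 0.69. NLGN1 (chromosome 3, 173396284 to 174286644, plus strand), a neuroligin of excitatory synapses, had 182, 207 and 172 counts in C4-2B, against 127, 251 and 161 in RC4-2B. RC4-2B held both the lowest and the highest NLGN1 value, with replicate 2 the highest. Its log2 fold change was -0.028 ± 0.23 (SE), with a 95% interval of -0.55 to 0.50 (edgeR adjusted p = 0.95), so changes beyond 1.41-fold up or 0.682 of the C4-2B level lie outside the interval. Corrected for GC content the value was -0.25, and it was -0.31 without RC4-2B replicate 2.

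Thus 5 of the 8 members passed the filter on low counts, and of the 4 tested members other than CBLN2, 0 passed an adjusted p of 0.05 in either direction, where 1.98% of all tested genes did. The count was also 0 at an unadjusted p under 0.05 in edgeR, and with an adjusted p in DESeq2. By FPKM the order in C4-2B was CBLN2 (1.10 ± 0.604), NLGN1 (0.952 ± 0.0796), CBLN3 (0.759 ± 0.0815), NRXN3 (0.521 ± 0.139) and GRID1 (0.133 ± 0.0557, SD, n = 3 each). The libraries of CBLN2 overlapped those of NLGN1, and those of CBLN3 overlapped those of NRXN3, so these neighbours in the order were not separated. In RC4-2B the order was NLGN1 (0.954 ± 0.324), CBLN3 (0.522 ± 0.0880), NRXN3 (0.433 ± 0.0776), GRID1 (0.204 ± 0.0141) and NRXN2 (0.0275 ± 0.0128), followed by CBLN2 at 0.00317. There only CBLN3 and NRXN3 overlapped among the first 5.

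The genes whose pattern over the 6 libraries was nearest to that of CBLN2 were PCDH7, NOVA1, SYT4, KLK3 and COL12A1. Likeness was the root mean square distance of log2 CPM centred on each gene's mean, and it was 0.485 for PCDH7, 0.648 for NOVA1, 0.682 for SYT4, 0.801 for KLK3 and 0.849 for COL12A1. PCDH7, a protocadherin of the cell surface, had 170, 268 and 380 counts in C4-2B, against 1 in each RC4-2B library, at least 87.8-fold lower. NOVA1, a neuronal RNA-binding splicing regulator, had 65, 89 and 146 counts in C4-2B, against 1, 3 and 0 in RC4-2B. Its C4-2B mean was 32.2-fold above 3 counts per RC4-2B library. RC4-2B replicate 2 reached that count, so for NOVA1 the value is not a lower bound. For CBLN2, PCDH7 and NOVA1 alike, C4-2B replicate 1 was lowest and replicate 3 highest. The distance used these same replicates, so a shared order is partly built in by the choice. In CPM, SYT4 and KLK3 had replicate 3 as the lowest of C4-2B instead. COL12A1, a fibril-associated collagen, had 119, 175 and 68 counts in C4-2B, against 0, 0 and 4 in RC4-2B, with replicate 3 the lowest of its line. SYT4, a synaptotagmin also on chromosome 18, and KLK3, which encodes prostate-specific antigen, were far more abundant and still present in RC4-2B, at 9.74 ± 4.17 CPM against 308 ± 5.95 for SYT4 and 48.4 ± 14.9 against 974 ± 55.1 for KLK3. These genes were picked for likeness to CBLN2, so their differences are given without a test.

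**Figure D2:**
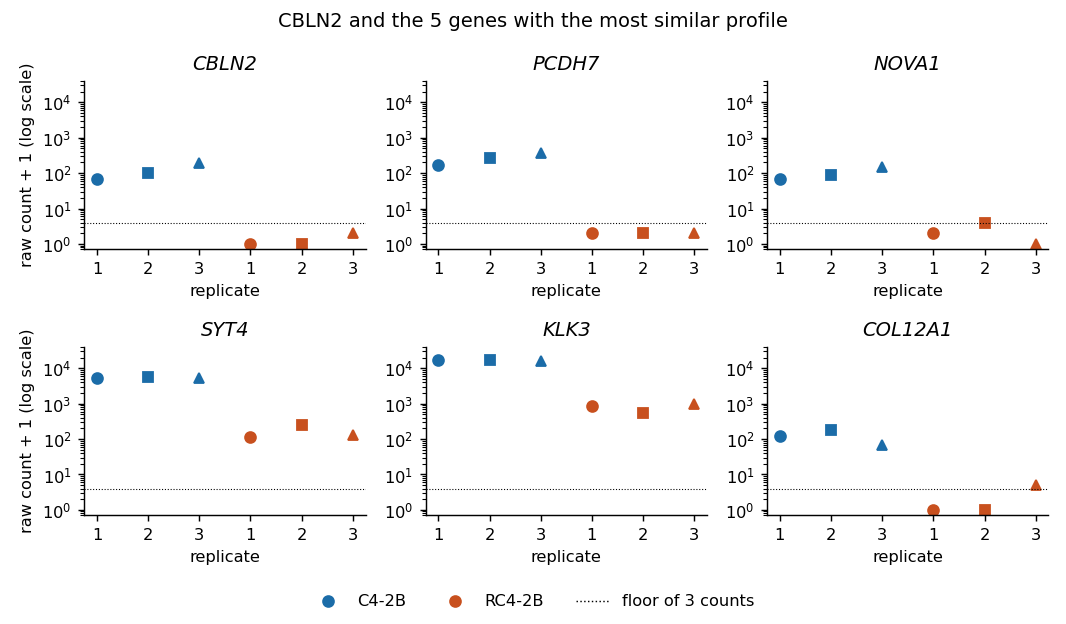
Raw count + 1 (log scale) of CBLN2 and of the 5 genes with the nearest pattern, 1 panel per gene and 1 marker per replicate, C4-2B in blue and RC4-2B in orange, with a dotted line at 3 counts. CBLN2, PCDH7 and NOVA1 lie at or under that line in all RC4-2B libraries, COL12A1 rises to 4 counts in 1 of them, and SYT4 and KLK3 keep at least 111.

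Counted over the whole table after the values had been seen, 3 genes had at least 65 counts in every C4-2B library and at most 3 in every RC4-2B library. They were CBLN2, PCDH7 and NOVA1. The limit of 65 was the lowest C4-2B count of CBLN2 itself. NOVA1, at 65 and 3 counts, only just met both limits, and COL12A1, at 4 counts in RC4-2B replicate 3, missed. The reverse pattern was found for 1 gene, ABCB1. Of the 4 neuronal markers, only MAP2 had enough counts to be tested, and it fell (edgeR adjusted p = 0.048). SNAP25 and STMN2 were at 0 counts in both lines, so they could not show a fall, and RBFOX3 had 1 to 11 counts. The summed neuron list was 3.37 to 5.07 FPKM in C4-2B, against 1.91 to 2.62 in RC4-2B. Nearly all of it was MAP2, at 3.32 to 5.05 FPKM in C4-2B and 1.88 to 2.61 in RC4-2B. The neuroendocrine list summed to 1.78 to 2.05 FPKM in C4-2B, against 1.52 to 2.13 in RC4-2B, with 0 of 5 markers called. Of these, only SYP and ENO2 were tested, as INSM1 was at 0 and CHGA and NCAM1 were too low. In the luminal list KLK3 fell by 4.33 and TMPRSS2 fell by 1.08 on the log2 scale. The other 4 matched luminal markers were not called, with log2 fold changes of 0.25 for EPCAM, 0.06 for FOLH1, -0.05 for KRT8 and -0.05 for KRT18. KLK3 alone went from 188 ± 9.85 to 9.47 ± 2.75 FPKM (n = 3 each). The part of these markers in the CBLN2 difference was not tested.

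CBLN2 lies on the long arm of chromosome 18, and each tested gene within 2 Mb of its start had counts in every RC4-2B library. In that window the table lists 39 genes, 9 of them tested and 27 with no more than 3 counts in any library. All 9 start at higher coordinates than CBLN2, from 0.107 to 1.96 Mb away. On the other side no gene in the window was tested, and the closest tested gene, SOCS6, starts 2.35 Mb away. The values thus cover 1 flank of CBLN2 only. FBXO15 had as few as 1 count in RC4-2B, in replicate 2. The nearest tested protein-coding gene, NETO1, which encodes an auxiliary subunit of kainate receptors, starts 0.230 Mb away. NETO1 had 1760, 2055 and 2213 counts in C4-2B, against 1513, 1615 and 1570 in RC4-2B. All RC4-2B counts were below all C4-2B counts, and in the test the log2 fold change was -0.32 ± 0.11 (SE, edgeR adjusted p = 0.17, and 0.029 after correction for GC content). The noncoding gene AC023301.1, at 0.107 Mb, had 128, 125 and 110 counts in C4-2B, against 93, 186 and 67 in RC4-2B, with a log2 fold change of -0.041. AC023301.1 lies inside the span of NETO1 on the same strand. Gene-level counts cannot tell its reads from those of unspliced NETO1 RNA. Of the 9 tested neighbours, 2 were lower in RC4-2B, where 0.903% of all tested genes were, and 0 were higher (also 0 at an unadjusted p under 0.05, and in DESeq2). Those that fell were CYB5A, encoding cytochrome b5 (-0.82 ± 0.14, edgeR adjusted p = 0.029), and CNDP2, encoding a cytosolic dipeptidase (-0.56 ± 0.0995, edgeR adjusted p = 0.029), which start 1.65 and 1.86 Mb from CBLN2. Both calls were lost when any C4-2B replicate (edgeR adjusted p = 0.14 to 0.19) or RC4-2B replicate 3 was left out, and that of CNDP2 also without RC4-2B replicate 1 (0.051). Without RC4-2B replicate 2 both held (edgeR adjusted p = 9.4e-05 for CYB5A and 6.3e-05 for CNDP2). They also held after correction for GC content (0.012 and 0.021). The median log2 fold change of the 9 was -0.32, and over the 230 tested genes of chromosome 18 it was -0.18, compared with 0.0098 on the other chromosomes. After correction for GC content the chromosome 18 median was -0.31. Those 230 genes include CBLN2 itself, which was chosen for its loss. Of them, 16 were called lower, CBLN2 among these, and 4 higher. On chromosome 18, 71.7% of tested genes had a log2 fold change below 0, compared with 49.0% elsewhere.

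**Figure D3:**
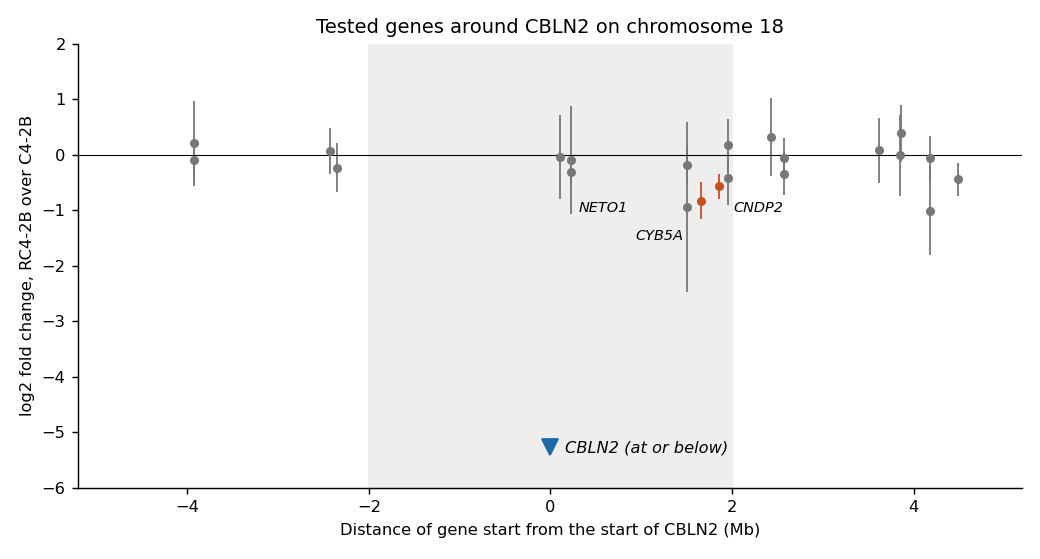
log2 fold change (RC4-2B over C4-2B, with 95% intervals) of the tested genes within 5 Mb of CBLN2 against the distance of their starts in Mb, with the 2 Mb window shaded and genes with an adjusted p under 0.05 in orange. The 9 genes in the shaded window lie between -0.94 and 0.18, while the triangle marks CBLN2 at its bound of -5.27.

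The partners of these proteins were followed through a list of 76 genes, 44 of them tested and 24 with no more than 3 counts in any library. RC4-2B was higher for 2 of the 44, where 1.08% of all tested genes were higher, and lower for 0 in edgeR (3 at an unadjusted p under 0.05, and 0 with an adjusted p in DESeq2). Both were ligands of LAR-type receptors, and 21 of the 44 had a log2 fold change above 0, with a median of -0.062 (0.13 after correction for GC content) compared with 0.0063 over all tested genes. SLITRK3, an adhesion protein of inhibitory synapses that binds PTPRD, had 39, 60 and 85 counts in C4-2B, against 204, 290 and 274 in RC4-2B. The groups did not overlap, and the level rose from 3.52 ± 1.26 to 15.1 ± 2.07 CPM (n = 3 each; log2 fold change 2.10 ± 0.26 (SE), edgeR adjusted p = 0.0089). IL1RAP, the interleukin-1 receptor accessory protein, which also binds PTPRD, had 323, 424 and 411 counts in C4-2B, against 575, 912 and 661 in RC4-2B. It too was higher in all RC4-2B libraries (22.2 ± 2.58 and 42.3 ± 8.55 CPM, log2 fold change 0.93 ± 0.17 (SE), edgeR adjusted p = 0.036). The IL1RAP call was lost without any one of the C4-2B replicates (edgeR adjusted p = 0.22, 0.15 and 0.16) and without RC4-2B replicate 3 (0.10), and the SLITRK3 call was lost without C4-2B replicate 2 (0.060). Without RC4-2B replicate 2 both held (edgeR adjusted p = 0.00071 for IL1RAP and 4.7e-05 for SLITRK3). They also held after correction for GC content (0.0035 and 0.00092).

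**Figure D4:**
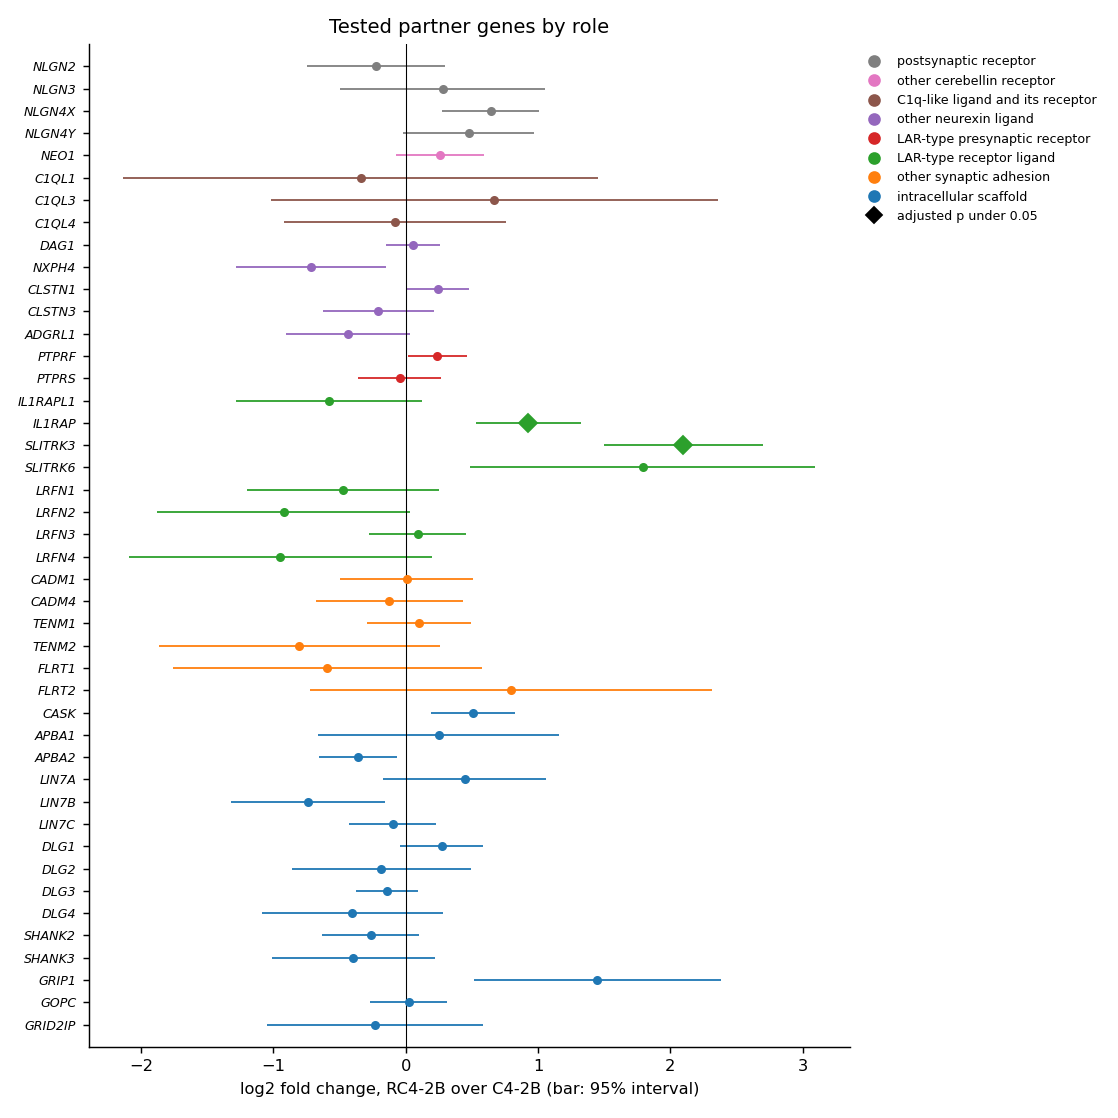
log2 fold change (RC4-2B over C4-2B, with 95% intervals) of the 44 tested partner genes, coloured by role. Diamonds mark the 2 genes with an adjusted p under 0.05, SLITRK3 and IL1RAP, which both lie to the right of 0.

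Of the 2 partners per role highest by FPKM, none of those tested passed the test. Of the LAR-type receptors, PTPRD had 0 counts in all 6 libraries, PTPRF was at 669 ± 30.8 CPM in C4-2B, against 790 ± 56.0 in RC4-2B (log2 fold change 0.24, edgeR adjusted p = 0.21), and PTPRS was at 141 ± 11.0 and 137 ± 21.2. Among further neurexin ligands, the calsyntenin CLSTN1 was at 343 ± 12.9 and 406 ± 36.1 CPM (log2 fold change 0.24, edgeR adjusted p = 0.22) while DAG1, which encodes dystroglycan, was at 320 ± 2.76 and 333 ± 8.43 (0.054, edgeR adjusted p = 0.73). After correction for GC content PTPRF (edgeR adjusted p = 0.047) and CLSTN1 (0.031) passed. The other cerebellin receptors were DCC, at 0 counts throughout, and NEO1 (neogenin), at 48.5 ± 2.53 and 58.2 ± 10.0 CPM. The C1q-like ligands C1QL4 and C1QL1 were at 2.72 ± 0.888 and 1.19 ± 0.300 CPM in C4-2B and at 2.58 ± 1.07 and 0.948 ± 0.822 in RC4-2B. LRFN1 and LRFN4, TENM1 and CADM4, and the scaffold proteins LIN7A and LIN7C also did not pass the test. MDGA1, an inhibitor of neuroligin binding, had 16, 15 and 8 counts in C4-2B, against 1, 0 and 0 in RC4-2B, and was not kept by the filter on low counts. By its C4-2B mean it was at least 4.22-fold lower. The second inhibitor, MDGA2, had at most 1 count in any library.

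The neuroligins were set side by side per length because NLGN1 is the member among them. NLGN4X was the highest, at 5.29, 6.31 and 6.06 FPKM in C4-2B, against 7.68, 11.8 and 8.69 in RC4-2B. All its RC4-2B values exceeded those of C4-2B, and the difference in counts missed the threshold (log2 fold change 0.64, edgeR adjusted p = 0.082). It passed with DESeq2 (adjusted p = 0.021) and after correction for GC content (edgeR adjusted p = 0.024). NLGN4X has a near-identical copy on the Y chromosome, and how reads shared by both were counted is not given in the sources used here. NLGN2, the neuroligin of inhibitory synapses, was at 3.63, 4.31 and 4.20 FPKM in C4-2B, against 4.25, 2.35 and 3.91 in RC4-2B, where replicate 2 was the low one. NLGN1 made up 7.65% to 9.46% of the FPKM summed over NLGN1, NLGN2, NLGN3 and NLGN4X in C4-2B, against 5.41% to 8.44% in RC4-2B, so it was a minor neuroligin in both lines.

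**Figure D5:**
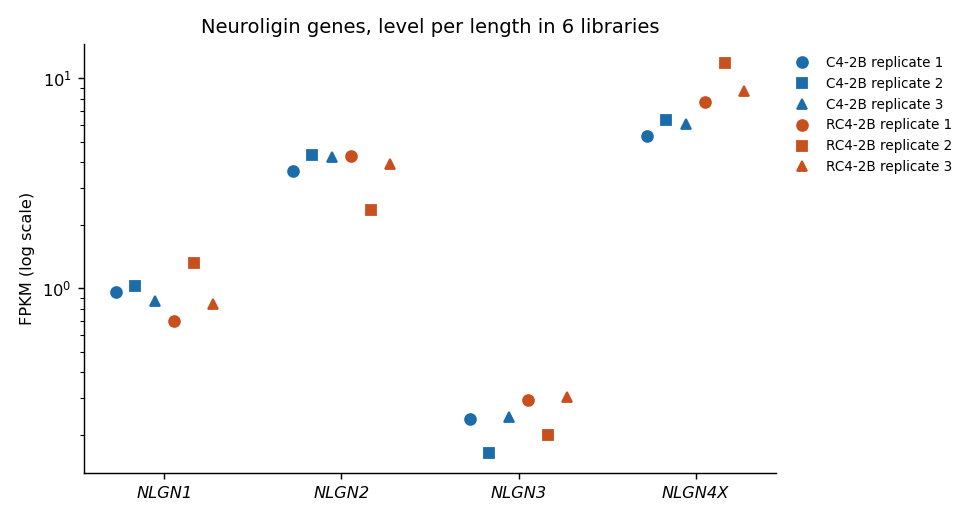
FPKM (log scale) of NLGN1, NLGN2, NLGN3 and NLGN4X in the 6 libraries, with 1 marker per library. NLGN4X lies between 5.29 and 11.8 and NLGN1 between 0.700 and 1.32, and RC4-2B replicate 2 is the highest library for NLGN4X and NLGN1 and the lowest of its line for NLGN2.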

How the data were processed

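Bulk RNA-seq libraries of C4-2B and RC4-2B (3 biological replicates each) were compared. The authors aligned reads with STAR to GRCh38 and deposited whole-number counts per gene, without normalization, and FPKM, which divides those counts by gene length and library total. The counting program, strand setting and annotation release are not given in the sources used here. The study's methods name charcoal-stripped and fetal bovine serum, and the labels fetal bovine serum.

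Counts were fitted in R 4.3.3 with edgeR 4.0.16 (TMM, filterByExpr with a minimum of 10 counts, 15054 genes, glmQLFit and glmQLFTest, Benjamini-Hochberg adjustment, threshold 0.05, default prior count) with cell line as the only term. The fit was also run on simulated counts that held no GC trend and no outlying library, so that run does not bear on RC4-2B replicate 2. A bound was the mean CPM of C4-2B divided by the CPM of 3 counts in RC4-2B, without the spread between C4-2B libraries. GC correction used a lowess offset (span 0.2) on transcripts of GENCODE 44. Alternatives used DESeq2 1.42.0, limma 3.58.1 on log2(FPKM + 1) and log2(FPKM + 0.1), other scalings and filters, and each library left out. The labels number the replicates and name no pairing. Between libraries of the same number the correlation of deviations was 0.31, 0.18 and -0.073, which does not settle whether they were paired. The main fit used no pairing, and counts with the replicate number as a block are given below. Named genes were the members, called partners, the 2 partners per role highest by FPKM, tested neighbours within 2 Mb, the 5 nearest patterns and ABCB1. KHNYN and markers were named for context. Some listed genes are not reported here. The members and lists were chosen with earlier results of these data known.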

Additional observations from a re-analysis of the deposited data

How the results depend on the processing

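CBLN3, GRID1 and NRXN3 kept their direction and their side of the threshold under every alternative that tested them, with log2 fold changes of -0.70 to -0.37, 0.37 to 0.98 and -0.43 to -0.068. NLGN1, whose value was -0.028, ranged from -0.31 to 0.14 with 1 library left out and was above 0 without C4-2B replicate 2 (0.033), RC4-2B replicate 1 (0.14) and RC4-2B replicate 3 (0.045). The fitted log2 fold change of CBLN2 depends on the prior count, at -7.99 with the default of edgeR and -5.68 with 2, and ranged from -9.88 to -7.47 with 1 library left out, while its bound on the log2 scale ranged from -5.55 to -4.75.

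Called partners, 2 higher and 0 lower, became 5 and 3 with no filter, 6 higher with the GC offset, 1 higher in limma with both pseudocounts (1 and 1), and 0 to 7 higher and 0 to 3 lower with 1 library left out. All calls, 162 higher and 136 lower, became 500 and 402 with DESeq2, 604 and 646 with no filter, 658 and 490 with the GC offset, 46 and 58 in limma at pseudocount 1, 39 and 47 at pseudocount 0.1, and 13 to 1000 and 31 to 925 with 1 library left out, the most without RC4-2B replicate 2. With the replicate number as a block, the calls were 55 higher and 74 lower over all genes and 1 lower among the neighbours of CBLN2. Those neighbours had 0 lower in limma with both pseudocounts (0 and 0) and 0 to 5 with 1 library left out. The cause of these shifts was not tested. CBLN1 and CBLN4, at or under 3 counts in every library, and NRXN2, at no more than 8 counts, are limited by depth.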
